A study of Homo sapiens with 8 samples.

Results

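The genes described here are 38 genes of cholesterol and fatty acid synthesis, chosen by name: 5 regulators, 7 enzymes of the mevalonate steps, 11 enzymes of the steps from squalene synthesis to cholesterol, 12 enzymes of fatty acid synthesis and desaturation, and 3 genes of sterol efflux and oxysterol production. Of these, 37 were found among the 16525 genes of the expression table, and CH25H was not analysed here. The study measured, by RNA sequencing, how pro-inflammatory cytokines change gene expression in EndoC-βH5, a human beta-cell line. The 4 control libraries came from untreated cells, and the 4 cytokine libraries from cells exposed for 48 hours to a mix of IL-1β (50 U/mL) with IFNγ and TNFα (1000 U/mL of each). Values are CPM, reads of a gene scaled to a common library size, and the libraries are called A to D by the part of the column name that a control and a cytokine library share. The labels do not say that libraries of a condition came from separate cultures, so the p-values measure the spread between these libraries only. All libraries came from a single line, and in bulk RNA fewer cells and less RNA per cell cannot be told apart.

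Cells make cholesterol from acetyl-CoA through mevalonate, isoprenoids, squalene and lanosterol, and they make fatty acids from the same acetyl-CoA through malonyl-CoA, with elongation and desaturation afterwards. Both branches are driven by the sterol regulatory element-binding proteins (SREBPs), membrane-bound transcription factors that SCAP escorts out of the endoplasmic reticulum when sterol is low and that INSIG proteins hold back when sterol is high. SREBP-2 acts mainly on the sterol genes and SREBP-1c mainly on the fatty acid genes, while the oxysterol-sensing LXR receptors raise SREBF1 and the efflux pumps. In beta cells, cholesterol content and fatty acid supply bear on secretory granules and insulin release.

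The libraries held between 36577438 and 40117636 reads on the listed genes, and the member with the fewest reads, ABCA1, had at least 33 in each library. The label of a beta-cell line was matched by all 8 beta-cell markers searched, among them INS at 1158 to 2905 CPM and SLC30A8 at 202 to 622 CPM over the 8 libraries. Among markers of other cells, the 4 islet hormones GCG, SST, PPY and GHRL summed to 463 to 2177 CPM in control libraries and to 553 to 1996 CPM in cytokine libraries. The exocrine and duct markers CPA1, CEL and KRT19 summed to 92.3 to 169 CPM in control and to 86.2 to 168 CPM in cytokine libraries. With cytokines the markers PDX1, MAFA, SLC30A8 and CPA1 were called lower. IAPP, NKX6-1, PCSK1 and CHGA had log2 fold changes of 0.93, 0.39, 0.42 and 0.39, higher in 4 of 4 pairs and not called, although IAPP and NKX6-1 were called higher with TMM scaling. GCG, at 93.3 ± 94.0 and 34.5 ± 34.7 CPM, was lower in 4 of 4 pairs (-1.47) and passed with a replicate block only (adjusted p = 3.89e-05). The part of these markers in the members' levels was not tested. The collagen gene COL1A1 stayed at or under 0.844 CPM in every library. Libraries A and B differed from C and D in many genes, SST among them, at 1761 and 2143 CPM in control A and B and 615 and 355 CPM in control C and D.

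With cytokines, 1 member rose and 4 fell, on limma's test across all genes where a call needs a change of more than 0.5 on the log2 scale in either direction at an FDR under 0.05. The gene that rose was INSIG1, which restrains SREBP activation, and the 4 that fell, SCD5, ACACB, FASN and ACACA, all belong to fatty acid synthesis. Among all genes tested, 9.52% were called higher and 17.5% lower, so the members' shares of 2.70% higher and 10.8% lower were both under the background. With TMM scaling, which sets the typical gene near 0, 6 members were higher and 3 lower, against 13.1% and 11.6% of all genes. The median log2 fold change was -0.15 over the members and -0.17 over all genes. None of the 18 genes of the sterol synthesis branch, the mevalonate and later sterol enzymes together, was called in either direction, and their median was -0.01, with 9 genes below and 9 above 0; limma gave 2 of them, SC5D and HSD17B7, an unadjusted p under 0.05, both higher, and edgeR called 3 higher. With a replicate block, 12 of the 18 had an unadjusted p under 0.05, 4 higher and 8 lower, and still none passed the fold limit. The 12 fatty acid genes had a median of -0.32, with 10 genes below 0.

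**Figure D1:**
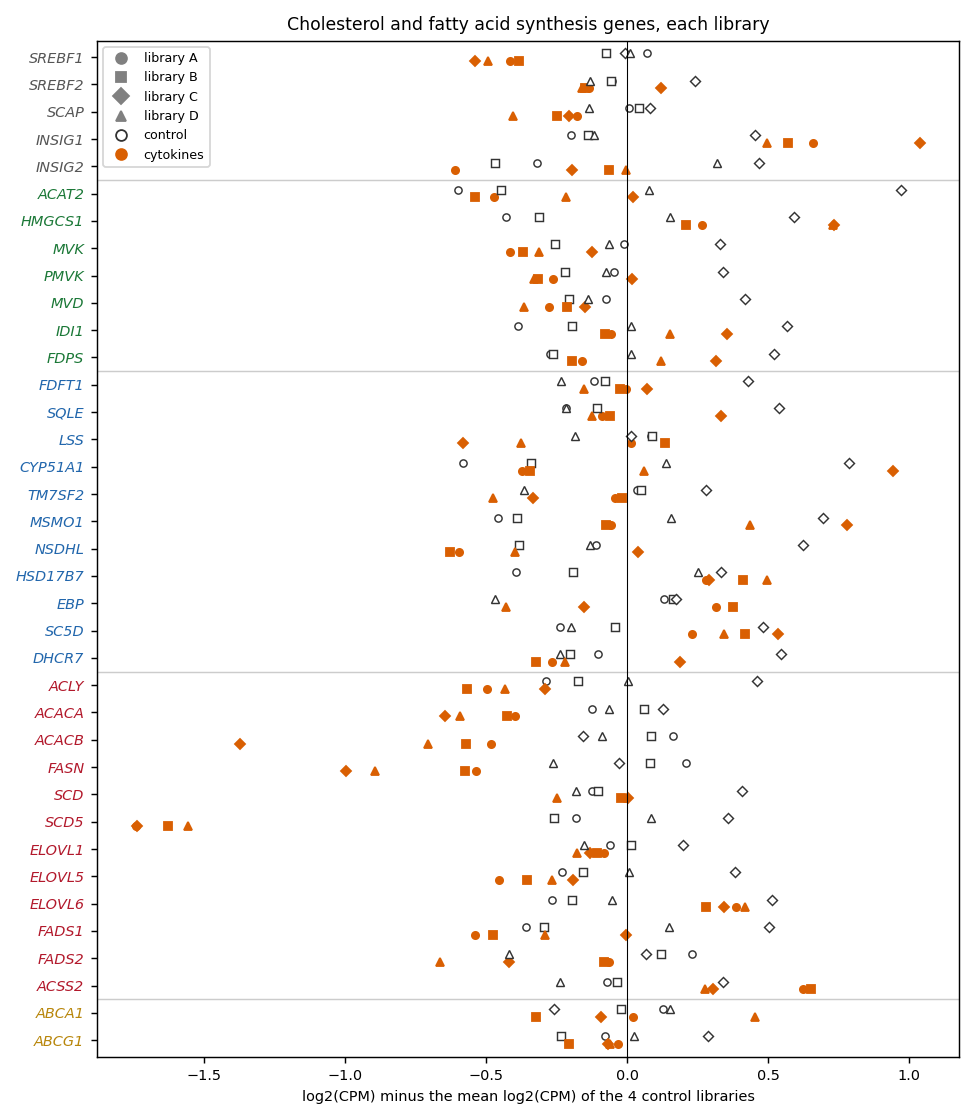
Level of each of the 37 members in each library, as log2(CPM) minus the mean log2(CPM) of the 4 control libraries; open symbols are control libraries, filled symbols cytokine libraries, and the shape gives library A to D. Cytokine points of SCD5, ACACB, FASN and ACACA lie left of every control point and those of INSIG1 right of them, while control library C is the rightmost control point for 17 of the 18 sterol branch genes.

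For 8 members, no cytokine library lay within the range of the control libraries or the reverse. INSIG1 was higher in every cytokine library, against 10.8% of all genes that were separated upwards. SREBF1, SCAP, ACLY, ACACA, ACACB, FASN and SCD5 were lower in every cytokine library, against 21.9% of all genes that were separated downwards. Full separation of 4 against 4 libraries fixes the 2-sided exact permutation p at 0.0286, the smallest this design allows. That p therefore restates the separation of these 8 and adds nothing to it. The 18 sterol branch genes overlapped between the conditions without exception.

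INSIG1 (ENSG00000186480, chr7:155297776-155310235 on GRCh38, plus strand) encodes the endoplasmic reticulum protein that retains the SCAP-SREBP complex and is itself a classical SREBP target. It stood at 109, 113, 171 and 115 CPM in control libraries A to D and at 197, 185, 256 and 176 CPM in cytokine libraries A to D. The lowest cytokine library lay just above the highest control library, control C, which stood apart from the other control libraries. The mean rose from 127 ± 29.2 to 204 ± 36.2 CPM (SD, n = 4 each), or 1.60-fold, a log2 fold change of 0.69 ± 0.17 (SE) with a limma adjusted p of 0.0117. The rise was seen in 4 of 4 library pairs, between 0.59 and 0.86 on the log2 scale.

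Its relative INSIG2, which shares the retention function but is not driven by SREBP in the same way, was far less abundant, at 9.28 ± 2.91 CPM in control and 7.78 ± 1.37 CPM in cytokine libraries (log2 fold change -0.22, adjusted p = 0.530). Per exon length, the INSIG1 to INSIG2 ratio was 16.4, 19.0, 14.9 and 11.2 in control libraries A to D and 36.4, 23.5, 35.5 and 21.4 in cytokine libraries A to D. The ratio was therefore higher in every cytokine library than in any control library.

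SREBF1, the gene of SREBP-1a and SREBP-1c, stood at 406, 368, 385 and 390 CPM in control libraries A to D and at 290, 297, 267 and 275 CPM in cytokine libraries A to D. All 4 cytokine libraries lay well below all control libraries, with little spread within either condition. The log2 fold change was -0.46 ± 0.11 (SE) with a limma adjusted p of 0.00901, past the FDR limit but short of the fold limit, so SREBF1 was not called. With TMM scaling its adjusted p was 0.0767, at a log2 fold change of -0.30, and edgeR gave 0.0834. DESeq2 gave an adjusted p of 0.0291. Limma with a replicate block gave 8.93e-06 on the deposited scale and 0.000492 with TMM scaling. The fold change of SREBF1 stayed short of the limit in these limma fits.

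SREBF2, the gene of SREBP-2, was at 554 ± 66.1 CPM in control and 524 ± 51.2 CPM in cytokine libraries, a log2 fold change of -0.08 ± 0.14 (SE, limma adjusted p = 0.698). With TMM scaling its value was 0.08, so its sign differed between the scales. SCAP, the escort protein, had 102 to 119 CPM in control and 85.0 to 99.5 CPM in cytokine libraries, which did not overlap, but its log2 fold change of -0.26 missed the test (adjusted p = 0.0917). The SREBF1 to SREBF2 ratio per exon length was 0.664 ± 0.0795 in control and 0.512 ± 0.0643 in cytokine libraries, and it was lower with cytokines in 4 of 4 pairs. The conditions overlapped, with cytokine B (0.561) just above control C (0.557).

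Upstream sequence is shown for INSIG1, the member that rose, for SREBF2, the only member whose searched window held the sterol regulatory element, for HMGCS1, the sterol branch gene with the highest fold change, and for SCD5, the member that fell most. The sequences are from RefSeq (GRCh38.p14), 5′ to 3′ on the gene's own strand, and end before the first exon that GENCODE 29 annotates. They lie at chr7:155297628-155297775 (plus), chr22:41832855-41833078 (plus), chr5:43313513-43313662 (minus) and chr4:82798858-82799046 (minus). Capitals mark the sterol regulatory element TCACNCCAC, in SREBF2 only, and the inverted CCAAT box ATTGG, the site of NF-Y, which acts with SREBPs.
INSIG1: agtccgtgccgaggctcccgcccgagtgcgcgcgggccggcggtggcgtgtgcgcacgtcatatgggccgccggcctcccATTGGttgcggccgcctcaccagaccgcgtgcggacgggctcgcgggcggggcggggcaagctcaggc
SREBF2: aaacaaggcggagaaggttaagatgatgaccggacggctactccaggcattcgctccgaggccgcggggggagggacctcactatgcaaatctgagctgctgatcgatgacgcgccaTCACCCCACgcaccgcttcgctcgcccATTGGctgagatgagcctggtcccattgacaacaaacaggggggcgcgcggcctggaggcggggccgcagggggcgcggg
HMGCS1: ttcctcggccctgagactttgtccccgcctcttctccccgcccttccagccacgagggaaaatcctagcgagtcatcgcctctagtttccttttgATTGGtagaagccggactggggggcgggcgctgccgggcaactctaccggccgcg
SCD5: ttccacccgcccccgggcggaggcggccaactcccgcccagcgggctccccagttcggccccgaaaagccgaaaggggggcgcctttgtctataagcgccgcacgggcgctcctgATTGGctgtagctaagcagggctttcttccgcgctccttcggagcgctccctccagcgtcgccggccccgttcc
The inverted CCAAT box begins 170 bases before the RefSeq start site in INSIG1, 106 in SREBF2, 155 in HMGCS1 and 135 in SCD5, and the sterol element of SREBF2 begins 133 bases before it. INSIG1 also held the E-box CACGTG, beginning 55 bases before the start site, and HMGCS1 a second inverted CCAAT box 100 bases before it, both in bases that GENCODE counts as exon and that are not printed. All 4 windows, of genes that rose, fell or were not called, held a CCAAT box in the printed part.

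Motifs were counted on both strands in the 250 bases before the start site for the 32 members matched in RefSeq. ABCG1, ACAT2, FASN, FDFT1 and SQLE were not matched. Each gene was searched at its most upstream RefSeq start only, so other start sites of a gene were not covered. The promoters of the background were chosen the same way and were not limited to genes of the expression table. The CCAAT box (ATTGG or CCAAT) was in 19 of 32 members, 11 of 15 in the sterol branch and 6 of 11 in the fatty acid branch, against 33.0% of all 27305 promoters. MVK and NSDHL held 5 copies each and MSMO1 held 4. The GC box GGGCGG, bound by Sp1, was in 27 of 32 members against 42.2% of all promoters.

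The sterol regulatory element TCACNCCAC was in 1 of 32 members, SREBF2, against 0.868% of all promoters. The E-box CACGTG, a site of ChREBP and SREBP-1, was in 5 members, INSIG1, SCAP, SC5D, ELOVL5 and ABCA1, against 6.46% of promoters. Motifs of the interferon pathway were searched too: neither the gamma-activated sequence TTCNNNGAA, found in 6.76% of all promoters, nor the interferon-stimulated response element, a pair of GAAA separated by any 2 bases and found in 3.07%, was in these windows of the 32 members. Each motif was counted on its own, also where its letters overlap another motif, and a match describes the letters only.

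The 7 mevalonate genes carry acetyl-CoA to farnesyl diphosphate, and 4 of them had log2 fold changes below 0. HMGCS1, which condenses acetoacetyl-CoA and acetyl-CoA to HMG-CoA, stood at 161, 175, 327 and 242 CPM in control libraries A to D and at 262, 252, 362 and 361 CPM in cytokine libraries A to D. Control C was above the cytokine libraries A and B, so the conditions overlapped, although the cytokine library was higher in 4 of 4 pairs. Its log2 fold change was 0.49 ± 0.23 (SE, limma adjusted p = 0.130), and it passed both thresholds with TMM scaling, at 0.64 (adjusted p = 0.0319), and without control library C, at 0.68 (adjusted p = 0.0241).

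ACAT2, the thiolase that makes acetoacetyl-CoA, ranged from 53.7 to 159 CPM in control and from 56.0 to 82.6 CPM in cytokine libraries (log2 fold change -0.30, adjusted p = 0.479). The fold change of ACAT2 was 0.02 without control C. In GENCODE, 52.3% of its exon bases are overlapped by genes on the other strand, among them SOD2 and TCP1. The library kit marks strand and the counting used default settings, and whether the strand setting matched the kit is not given in the sources used here, so reads of these genes in the ACAT2 value cannot be told apart.

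The mevalonate and phosphomevalonate kinases MVK and PMVK and the decarboxylase MVD stood at 83.8 ± 14.7, 24.2 ± 4.22 and 146 ± 31.1 CPM in control libraries. With cytokines they stood at 67.2 ± 6.10, 20.6 ± 2.43 and 121 ± 7.75 CPM. All 3 were lower in 4 of 4 pairs and by similar amounts (log2 fold changes -0.31, -0.22 and -0.25), and none passed the test without a replicate block (adjusted p = 0.120, 0.287 and 0.222). Limma with the block put all 3 past the FDR (adjusted p = 0.00189, 0.0304 and 0.0126), but not past the fold limit. IDI1, the isopentenyl diphosphate isomerase, was at 159 ± 48.5 and 165 ± 23.7 CPM (log2 fold change 0.09), and FDPS, the farnesyl diphosphate synthase, at 264 ± 73.4 and 263 ± 44.8 CPM (0.02). FDPS has 8 named pseudogenes, so its reads may be shared with near-identical copies.

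The 11 later sterol genes ranged in log2 fold change from -0.39 to 0.38, and none was called. SC5D, the lathosterol desaturase, stood at 89.7, 103, 148 and 92.1 CPM in control libraries A to D and at 124, 141, 153 and 134 CPM in cytokine libraries A to D. Each cytokine library was above its own control, but control C lay among the cytokine values. Its log2 fold change of 0.38 ± 0.16 (SE) gave the lowest adjusted p of the sterol branch, 0.0989, and with TMM scaling it was 0.54 (adjusted p = 0.0160).

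HSD17B7, the 3-ketosteroid reductase of the pathway, stood at 26.2, 30.2, 43.3 and 41.0 CPM in control and at 41.8, 45.8, 42.0 and 48.6 CPM in cytokine libraries A to D. The higher level was seen in pairs A, B and D, and pair C was nearly level. Its log2 fold change was 0.37 ± 0.17 (SE, limma adjusted p = 0.117), or 0.52 with TMM scaling (adjusted p = 0.0142). HSD17B7 has 2 named pseudogenes. Libraries A and B alone gave 0.64, and C and D alone 0.10.

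MSMO1, the C4-methyl sterol oxidase, was higher with cytokines in 4 of 4 pairs, with means of 69.6 ± 27.2 and 82.1 ± 24.1 CPM (log2 fold change 0.27, adjusted p = 0.485). NSDHL, which acts at the same C4-demethylation steps, was lower in 4 of 4 pairs, at 23.8 ± 7.88 and 17.8 ± 4.04 CPM (-0.39, adjusted p = 0.208). The spread among control libraries, with control C at 106.6 CPM for MSMO1 and 35.4 CPM for NSDHL, was as large as either difference. Both passed the FDR in limma with a replicate block (adjusted p = 0.00349 for MSMO1 and 0.00176 for NSDHL), but not the fold limit.

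The remaining sterol enzymes had log2 fold changes between -0.22 and 0.07, and none was called. Squalene synthase FDFT1 was at 238 ± 52.5 and 230 ± 14.6 CPM, and SQLE, the squalene epoxidase and a rate-limiting step, at 173 ± 48.4 and 172 ± 27.1 CPM. LSS, the lanosterol synthase, was at 594 ± 51.0 and 525 ± 119 CPM, with cytokine libraries C and D, at 396 and 456 CPM, below all others. TM7SF2, a sterol C14 reductase, was at 121 ± 21.5 and 103 ± 15.8 CPM (-0.22) and lower in 4 of 4 pairs. EBP, the sterol isomerase, was at 17.5 ± 3.36 and 18.0 ± 4.61 CPM, and DHCR7, which performs the last reduction, at 137 ± 38.9 and 121 ± 20.8 CPM. CYP51A1, the lanosterol demethylase, had only 7.06 ± 3.11 and 7.46 ± 3.58 CPM, and 79.4% of its exon bases are shared with other GENCODE entries on its strand, whose reads htseq-count leaves unassigned by default. The level of CYP51A1 is therefore uncertain.

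**Figure D2:**
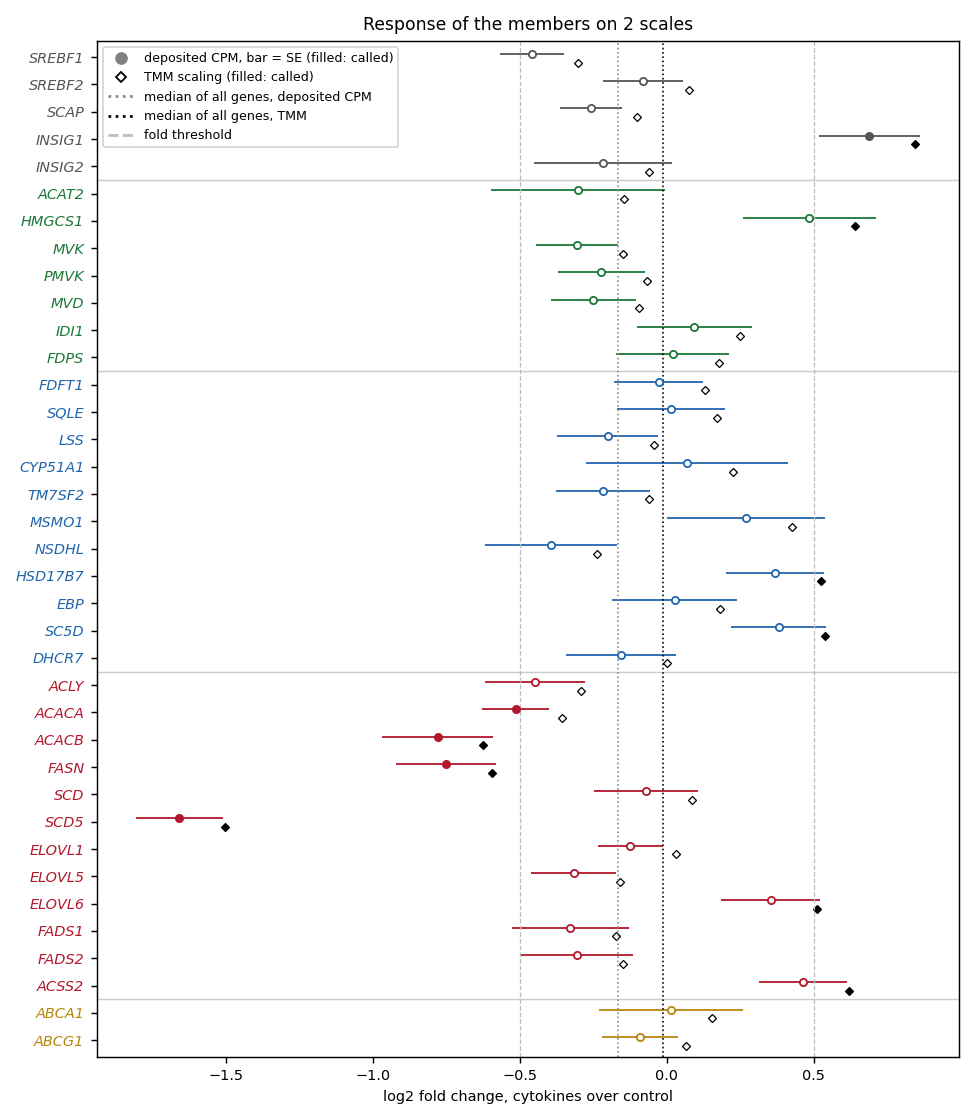
Log2 fold change of each member, cytokines over control, on the deposited CPM scale (circles with SE, n = 4 libraries a condition) and with TMM scaling (diamonds); filled symbols passed both thresholds, dotted lines mark the median of all genes on each scale and dashed lines the fold limit. All diamonds lie right of their circles by about the distance between the dotted lines, from -0.17 to -0.01.

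SCD5 (ENSG00000145284, chr4:82629539-82798857, minus strand) encodes a stearoyl-CoA desaturase that introduces the double bond of oleate and palmitoleate. It stood at 51.0, 48.3, 74.1 and 61.3 CPM in control libraries A to D and at 17.3, 18.7, 17.4 and 19.7 CPM in cytokine libraries A to D. The cytokine libraries were tightly grouped far below the lowest control library. The mean fell from 58.7 ± 11.7 to 18.3 ± 1.14 CPM, to 0.311 of the control level, a log2 fold change of -1.66 ± 0.15 (SE) with a limma adjusted p of 1.33e-05.

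SCD, the main stearoyl-CoA desaturase, did not follow it. SCD stood at 1431, 1454, 2069 and 1374 CPM in control libraries A to D and at 1550, 1535, 1564 and 1313 CPM in cytokine libraries A to D. Control C was the highest of the 8 libraries and cytokine D the lowest. The log2 fold change was -0.07 ± 0.18 (SE, limma adjusted p = 0.804), or 0.09 with TMM scaling. The SCD5 to SCD ratio per exon length was 0.0466 ± 0.00625 in control and 0.0154 ± 0.00226 in cytokine libraries, which did not overlap.

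FASN (ENSG00000169710, chr17:82078333-82098332, minus strand), the fatty acid synthase that builds palmitate, stood at 1638, 1502, 1392 and 1183 CPM in control libraries A to D. In cytokine libraries A to D it stood at 978, 953, 712 and 763 CPM. Every cytokine library was below every control library, and in both conditions C and D were lower than A and B. The mean fell from 1428 ± 192 to 851 ± 134 CPM, to 0.596 of control, a log2 fold change of -0.75 ± 0.17 (SE, limma adjusted p = 0.00721).

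ACACB (ENSG00000076555, chr12:109116595-109268226, plus strand) encodes acetyl-CoA carboxylase 2, whose malonyl-CoA restrains mitochondrial fatty acid uptake. It stood at 38.4, 36.4, 30.8 and 32.3 CPM in control libraries A to D and at 24.6, 23.1, 13.3 and 21.04 CPM in cytokine libraries A to D. Cytokine C was lower than the other cytokine libraries, and all of them were under the lowest control library. The log2 fold change was -0.78 ± 0.19 (SE, limma adjusted p = 0.00988), and cytokine means were 0.595 of control.

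ACACA (ENSG00000278540, chr17:37084988-37406818, minus strand) encodes acetyl-CoA carboxylase 1, which supplies malonyl-CoA for synthesis. It stood at 122, 139, 145 and 127 CPM in control libraries A to D and at 101, 98.9, 84.8 and 88.0 CPM in cytokine libraries A to D. The conditions were separate, and the fall was larger within libraries C and D (-0.65) than within A and B (-0.38), a difference that did not pass the interaction test. The log2 fold change of -0.51 ± 0.11 (SE, limma adjusted p = 0.00591) lay just past the fold limit. It was short of the limit with TMM scaling (-0.36) and when control B, control C, cytokine C or cytokine D was left out (-0.49, -0.47, -0.47 and -0.49).

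ACLY, the ATP citrate lyase that makes cytosolic acetyl-CoA for both branches, stood at 471, 510, 793 and 577 CPM in control libraries A to D and at 408, 388, 470 and 427 CPM in cytokine libraries A to D. The conditions were separate by a narrow margin, with control C again the highest. Its log2 fold change of -0.45 ± 0.17 (SE) did not pass the test (adjusted p = 0.0691). Without control A it was -0.54 and passed (adjusted p = 0.0431).

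ACSS2, which makes acetyl-CoA from acetate, went the other way. It stood at 53.2, 54.5, 70.6 and 47.4 CPM in control libraries A to D and at 85.9, 87.6, 68.8 and 67.6 CPM in cytokine libraries A to D. Control C overlapped the cytokine libraries C and D. The log2 fold change of 0.46 ± 0.15 (SE) passed the FDR (adjusted p = 0.0374) but not the fold limit, which it did pass with TMM scaling (0.62, adjusted p = 0.00906) and without control C (0.58), cytokine C (0.52) or cytokine D (0.53).

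ELOVL6, which elongates palmitate to stearate, was at 19.6 ± 5.24 and 24.5 ± 0.993 CPM in control and cytokine libraries, a log2 fold change of 0.36 ± 0.17 (SE, limma adjusted p = 0.135), and with TMM scaling 0.51 (adjusted p = 0.0176). Without control C its value was 0.53 (adjusted p = 0.00895). ELOVL5, an elongase of polyunsaturated fatty acids, was at 171 ± 34.3 and 136 ± 10.6 CPM (-0.32, adjusted p = 0.124), and ELOVL1, an elongase of very long saturated chains, at 53.0 ± 5.59 and 48.5 ± 1.36 CPM (-0.12). The desaturases FADS1 and FADS2, which act in turn on polyunsaturated fatty acids, had log2 fold changes of -0.33 and -0.31 (adjusted p = 0.240 and 0.256), and both were lower in 4 of 4 pairs.

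The branches were also compared as sums of levels per exon length, in TPM, which divides reads by exon length and scales each library to one total. The 18 sterol branch genes summed to 1607, 1625, 3094 and 2187 TPM in control libraries A to D and to 1903, 1941, 2671 and 2477 TPM in cytokine libraries A to D. The 12 fatty acid genes summed to 2466, 2440, 3906 and 2928 TPM in control libraries A to D and to 2395, 2380, 2761 and 2597 TPM in cytokine libraries A to D. Control C had the highest sum in both branches, and the sums overlapped between conditions with or without control C.

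The ratio of the fatty acid to the sterol sum was 1.53, 1.502, 1.26 and 1.34 in control libraries A to D and 1.26, 1.23, 1.03 and 1.05 in cytokine libraries A to D. The ratio was lower with cytokines in 4 of 4 pairs, with means of 1.41 ± 0.130 and 1.14 ± 0.117, and the highest cytokine value (1.258) lay only just under the lowest control value (1.262). Without FASN and SCD, the most abundant fatty acid genes, the ratio was 0.580 ± 0.0371 and 0.454 ± 0.0339. No test was run on these sums, and the difference between the branches was not tested.

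**Figure D3:**
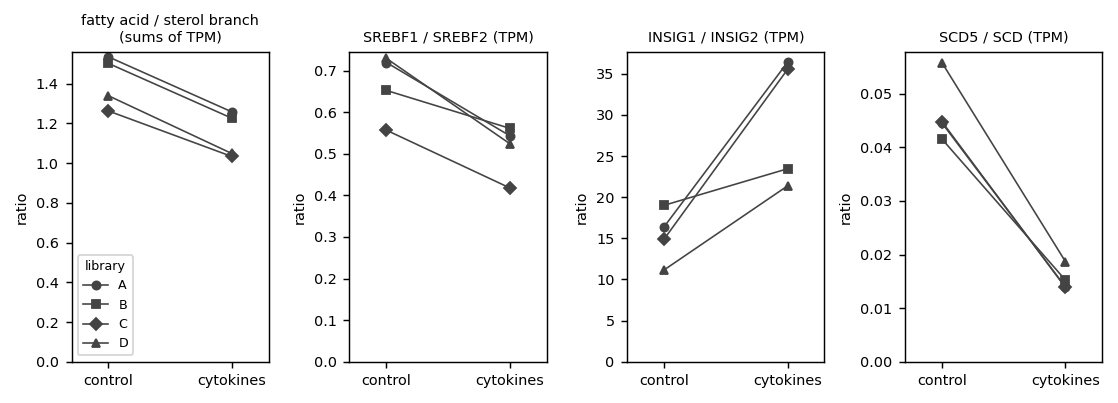
Ratios of levels per exon length (TPM) in control and cytokine libraries, with lines joining the libraries that share a column name (A to D). The fatty acid to sterol branch, SREBF1 to SREBF2 and SCD5 to SCD ratios were lower with cytokines in all 4 pairs, and the INSIG1 to INSIG2 ratio was higher in all 4.

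Per exon length, SCD was the most abundant member, at 1142 ± 345 TPM in control libraries, followed by FASN at 578 ± 41.2 TPM and ACLY at 440 ± 157 TPM. FASN and ACLY overlapped within their spread, as did LSS (312 ± 27.1 TPM), FADS2 (303 ± 39.5), SREBF2 (283 ± 61.1) and FDPS (278 ± 109), the next in order. With cytokines, SCD was at 1149 TPM, FASN at 373 TPM and ACLY at 339 TPM. The other members lay between 10.5 TPM (ELOVL6) and 312 TPM in control libraries, except that INSIG2 (9.30 TPM), ACACB (9.03), CYP51A1 (7.83) and ABCA1 (0.299) were the lowest. ACACB was thus minor beside ACACA (39.3 TPM), with a ratio of 0.234 ± 0.0379 in control and 0.196 ± 0.0371 in cytokine libraries.

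**Figure D4:**
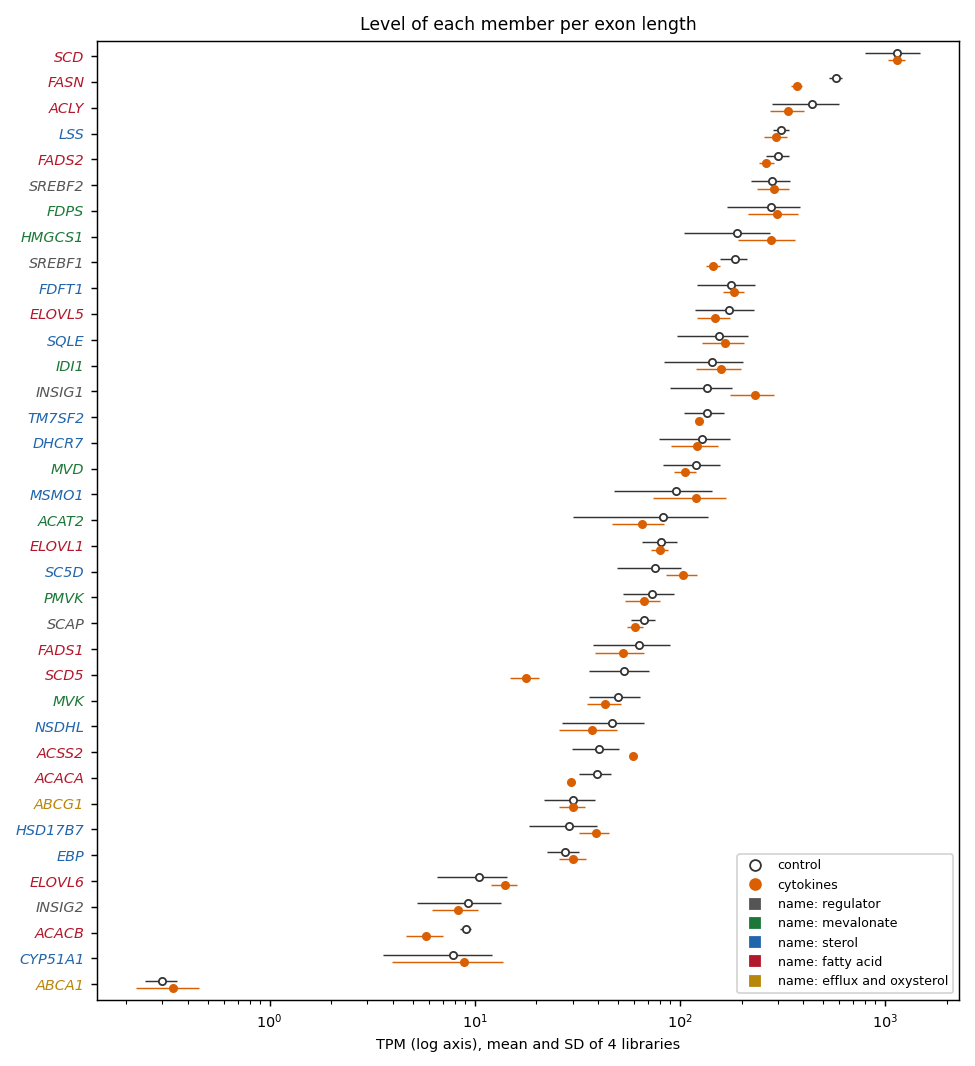
Level of each member per exon length (TPM, log axis), mean and SD of 4 control libraries (open) and 4 cytokine libraries (filled), in order of the control mean; name colours give the role. Levels run from 0.299 TPM for ABCA1 to 1142 TPM for SCD in control libraries, and SCD5 went from 53.4 to 17.7 TPM with cytokines.

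The efflux pumps, which LXR receptors induce when sterol accumulates, did not pass the test in limma or edgeR, and neither had an unadjusted p under 0.05. ABCA1, which loads cholesterol onto apolipoprotein A-I, was at 0.886 ± 0.111 and 0.907 ± 0.214 CPM (log2 fold change 0.02, adjusted p = 0.970). ABCG1 was at 47.5 ± 7.41 and 44.3 ± 2.30 CPM (-0.09, adjusted p = 0.633). ABCA1 had 33 reads in its lowest library, and the SE of its log2 fold change was 0.24.

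Among 65 further genes of lipid metabolism, 63 were in the table, and 7 rose and 10 fell, shares of 11.1% and 15.9% that are near the 9.52% and 17.5% of all genes. With TMM scaling or edgeR the balance turned to 10 higher and 6 lower. The 4 lost were VLDLR, TMEM97, FADS3 and ME1, and those gained were MBTPS1, NPC2 and LPIN1. The median log2 fold change of the 63 genes was -0.12 on the deposited scale, beside -0.17 over all genes. Of 8 genes of SREBP processing and sterol-regulated degradation, 1 was called on the deposited scale and 2 with TMM scaling. ERLIN1, an endoplasmic reticulum protein that binds SREBP-SCAP-INSIG complexes, was called on both. ERLIN1 rose from 11.3 ± 1.93 to 28.2 ± 3.00 CPM (log2 fold change 1.32, adjusted p = 0.0001). MBTPS1, the site-1 protease that cuts SREBPs, was at 121 ± 11.4 and 156 ± 8.02 CPM without overlap (0.36, adjusted p = 0.0284), short of the fold limit, and it was called higher with TMM scaling (0.52, adjusted p = 0.00189).

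Of 7 genes of LXR and its targets, 1 was called. MYLIP, the ubiquitin ligase that removes lipoprotein receptors and an LXR target, rose from 9.66 ± 0.546 to 18.0 ± 1.98 CPM (0.88, adjusted p = 0.0006). RXRA was at 105 ± 8.79 and 77.5 ± 4.54 CPM without overlap (-0.44, adjusted p = 0.0116), short of the fold limit. On the TMM scale it did not pass the FDR (-0.28, adjusted p = 0.104). MLXIPL, the gene of ChREBP, was at 829 ± 312 and 540 ± 190 CPM (-0.61) and passed with a replicate block (adjusted p = 2.54e-06) but not without it (adjusted p = 0.166).

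In sterol uptake, transport and esterification, 2 of 9 genes rose and 2 fell. NPC1, which exports cholesterol from lysosomes, rose from 37.1 ± 1.16 to 55.7 ± 5.87 CPM (0.58), and STARD4, a cytosolic sterol carrier, from 39.0 ± 6.68 to 58.6 ± 4.31 CPM (0.60). VLDLR, a lipoprotein receptor, fell from 132 ± 21.8 to 85.8 ± 8.05 CPM (-0.61), and TMEM97, a sterol-responsive partner of NPC1, from 50.6 ± 10.9 to 34.3 ± 2.15 CPM (-0.54). With TMM scaling VLDLR and TMEM97 were within the fold limit, at -0.45 and -0.38. NPC2 was at 80.4 ± 12.8 and 110 ± 13.7 CPM without overlap (0.46, adjusted p = 0.0274), short of the fold limit. It was called higher with TMM scaling (0.62, adjusted p = 0.00277), where 3 of the 9 genes were higher and 0 lower.

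Among 4 oxysterol enzymes, 2 fell: CYP7B1, the oxysterol 7-alpha-hydroxylase, from 9.24 ± 0.782 to 2.79 ± 0.359 CPM (-1.70), and CYP46A1, the cholesterol 24-hydroxylase, from 23.6 ± 3.89 to 13.95 ± 2.55 CPM (-0.76). FAXDC2, a sterol desaturase-like gene and 1 of 6 genes of the prenyl branch and other sterol steps, fell from 4.69 ± 0.813 to 1.02 ± 0.153 CPM (-2.09). The conditions were separate for all 3.

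Fatty acid elongation and activation, with 15 genes, held 3 that rose and 3 that fell. ELOVL7, an elongase of very long chains, rose from 2.81 ± 0.914 to 13.0 ± 1.03 CPM (2.22), and ACSL1, an acyl-CoA synthetase, from 32.4 ± 5.23 to 64.7 ± 3.01 CPM (1.01). ACSL5, another acyl-CoA synthetase, had 0, 0, 0 and 3 reads in control libraries A to D and 60, 86, 85 and 101 reads in cytokine libraries A to D. The ratio of the summed rates was 112, with an exact 95% interval of 38.0 to 545 that covers counting error only. ELOVL2 fell from 27.1 ± 3.85 to 16.3 ± 1.74 CPM (-0.72) and FADS3 from 43.1 ± 1.34 to 28.7 ± 2.95 CPM (-0.59, or -0.43 with TMM scaling, within the fold limit). SLC25A1 was at 160 ± 22.4 and 116 ± 11.6 CPM without overlap (-0.45, adjusted p = 0.0248), short of the fold limit. On the TMM scale it did not pass the FDR (-0.30, adjusted p = 0.122).

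ME1, the malic enzyme that supplies NADPH, fell from 2.63 ± 0.987 to 1.33 ± 0.308 CPM (-0.88), but its libraries overlapped and it stayed called in only 2 of 8 fits without a library and was not called with TMM scaling (adjusted p = 0.0577). In glycerolipid synthesis, 2 of 7 genes fell: AGPAT2, which makes phosphatidic acid, from 70.04 ± 17.6 to 38.5 ± 9.71 CPM (-0.86), and DGAT2, which makes triacylglycerol, from 13.1 ± 1.34 to 8.14 ± 1.17 CPM (-0.69). LPIN1 went the other way, at 220 ± 39.3 and 301 ± 31.5 CPM without overlap (0.46, adjusted p = 0.0349), short of the fold limit. It was called higher with TMM scaling (0.62, adjusted p = 0.00329). None of the 7 genes of fatty acid oxidation was called by limma, TMM scaling or edgeR, and 2 of them, CPT2 and HADHA, had an unadjusted p under 0.05, both lower. HADHA, at 168 ± 24.9 and 119 ± 8.62 CPM without overlap, passed the FDR in limma (adjusted p = 0.0156) but not the fold limit (-0.48). The same held with TMM scaling (-0.33, adjusted p = 0.0367) and edgeR (-0.33, adjusted p = 0.0428). CPT2 (-0.51, adjusted p = 0.0619) and AGPAT1 (-0.53, adjusted p = 0.0784) passed with a replicate block (adjusted p = 7.13e-05 and 2.81e-06) and in 2 and 1 of the 8 fits without a library. With TMM scaling they were within the fold limit, with or without the block, at -0.35 and -0.37.

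**Figure D5:**
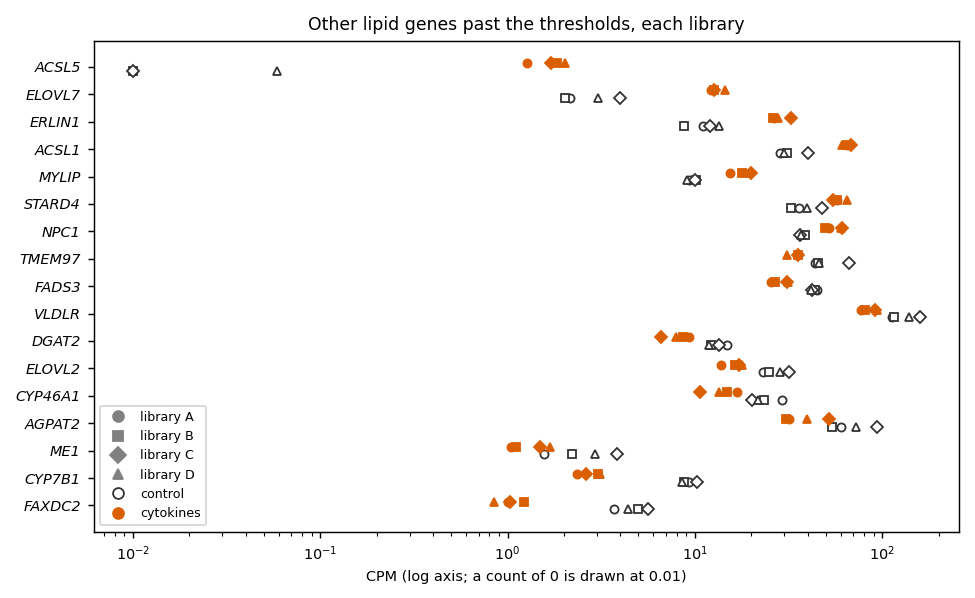
Level in each library of the 17 other lipid genes that passed both thresholds (CPM, log axis), open symbols for control and filled for cytokine libraries; a count of 0 is drawn at 0.01 CPM. The conditions are separate for 16 of the 17, and overlap for ME1.

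With TMM scaling the median of all genes was -0.01, and the 6 members called higher were INSIG1, HMGCS1, SC5D, HSD17B7, ACSS2 and ELOVL6. The 3 called lower were SCD5, ACACB and FASN. The sterol branch then had 3 genes higher, none lower and a median of 0.15, and the fatty acid branch 2 higher, 3 lower and a median of -0.17. With edgeR on the recovered reads 13.1% of all genes were higher and 11.4% lower, and 5 members were higher and 3 lower, ELOVL6 falling short of the fold limit.

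With the shared column name as a replicate block, limma called 11.6% of all genes higher and 23.8% lower, and it called the same 1 member higher and 4 lower as without the block. Another 19 members passed the FDR there but not the fold limit, beside 3861 of all 16525 genes. Of the 19, 11 were in the sterol branch and 6 in the fatty acid branch. HMGCS1, SC5D and ACLY were among them (adjusted p = 8.28e-05, 0.000652 and 0.000118). Control library C weighed on the sterol branch: it was the highest control library for 17 of its 18 genes and for 9 of the 12 fatty acid genes, and cytokine C was the highest cytokine library for 14 of the 18. The median log2 ratio of cytokine to control over the 18 sterol genes was 0.12, 0.05 and 0.03 in pairs A, B and D and -0.32 in pair C. Over the 12 fatty acid genes it was -0.21, -0.20 and -0.35 in pairs A, B and D and -0.54 in pair C, and over all genes -0.08, -0.12, -0.16 and -0.28 in pairs A to D. Control C also held the most IAPP, at 6746 CPM against 2710 to 3972 CPM in the other control libraries, and the most GCG, at 222 CPM against 19.8 to 104 CPM, and their part in the sterol gene levels was not tested. Without control C, 5 members were called higher, INSIG1, HMGCS1, SC5D, ACSS2 and ELOVL6, and the share of all genes in that fit is not given. The difference in response between libraries A and B and libraries C and D passed an interaction test for 0.0303% of all genes and for none of the 37 members in limma, of which 1, HSD17B7, had an unadjusted p under 0.05.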

How the data were processed

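RNA was sequenced as 100 bp paired reads, which the authors cleaned with SOAPnuke, aligned to GRCh38 with TopHat 2.1.1 and counted with htseq-count 0.9.1 on Ensembl release 107 under default settings. The authors deposited CPM for genes above 0.5 CPM in at least 4 samples. Another 4 columns of per-sample values were not used here. In the 8 libraries used, 100% of values were whole multiples of 1 read (within 0.01 reads), which gave read counts. The main test, limma 3.58.1 (R 4.3.3), was fitted to log2(CPM + 0.1) of all 16525 genes with an intensity trend and Benjamini-Hochberg adjustment, with the authors' limits of 0.5 on the log2 scale and an FDR of 0.05. Fold changes of low genes are understated by the pseudocount. Intervals cover counting error only.

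Alternatives were the pseudocount (0.5, 1), a filter at a mean of 1 CPM, no trend, TMM and median-of-ratios scaling, edgeR 4.0.16, DESeq2 1.42.0, a replicate block and leaving out each library; TMM scaling or edgeR with the block and the interaction were added after seeing the data, as were the motifs and the promoters shown. The columns carry no replicate number, and the pairs come from the shared first part of column names: deviations from the group means correlated by 0.457 to 0.748 within pairs, but control A also by 0.447 with cytokine B and control B by 0.489 with cytokine A. TPM used GENCODE 29 exon lengths. The members and lists were chosen with earlier results of these data known. Members past the thresholds or without overlap are named with values, the others within their role, and of other lipid genes those past the thresholds. MLXIPL, AGPAT1, CPT2, HADHA, MBTPS1, NPC2, LPIN1, RXRA and SLC25A1 were named after their values were seen. Python 3.11.15 with pandas 2.3.3, scipy 1.17.1 and matplotlib 3.10.9 served for tables and figures, and the fits were tested on simulated data.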

Additional observations from a re-analysis of the deposited data

Results flagged for a closer look

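Of 74 groups of 4 libraries examined, 8 held a library whose gap to its nearest neighbour was too large a share of the group's range by Dixon's test at the 95% level, and chance flags about 1 in 20 groups. In control library C this was the case for INSIG1 (171 CPM), SQLE (245 CPM), DHCR7 (195 CPM) and SCD (2069 CPM), each above the other control libraries. In cytokine library C it was the case for SREBF2 (600.2 CPM) and SQLE (212 CPM), again the highest. EBP in control library D (12.4 CPM) and SCD in cytokine library D (1313 CPM) were below the others of their condition.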

How the results depend on the processing

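The 4 members called lower and the 1 called higher were the same with either pseudocount, the filter, no trend and the replicate block. Members called higher numbered 6 with TMM scaling, 6 with median-of-ratios scaling, 5 with edgeR, 6 with DESeq2 and 6 when a replicate block was added to TMM scaling or to edgeR with TMM. With TMM scaling and the block, 2632 of all 16525 genes were higher and 2685 lower. Shares of all genes are not given for median-of-ratios scaling, DESeq2, edgeR with the block or fits without single libraries. Counts of members and other lipid genes in those settings thus have no background beside them. Members called lower, like fatty acid genes called lower, numbered 2 with median-of-ratios scaling, where FASN (-0.59, adjusted p = 0.0534) and ACACA (-0.35) were lost. Leaving out single libraries gave 1 to 5 members higher, 3 to 5 members lower, 3 to 5 fatty acid genes lower and 0 sterol branch genes lower. The 5 members higher came without control C, and 2 without cytokine C or cytokine D. Other lipid genes called higher numbered 11 with DESeq2, 12 with TMM scaling and the replicate block and 12 with edgeR and the block, and 7 to 10 without single libraries. Other lipid genes called lower numbered 6 with TMM, median-of-ratios or edgeR, and 8 to 12 without single libraries. With a replicate block on the deposited scale, 13 other lipid genes were called lower, and MLXIPL, AGPAT1 and CPT2 were the added ones; among cell type markers the block added IAPP and PPY as higher and GCG as lower, and it changed no other call among the genes listed.

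The sign reversed for genes near 0. With TMM scaling, with or without the replicate block, values were 0.065 for ABCG1, 0.0018 for DHCR7, 0.033 for ELOVL1, 0.13 for FDFT1, 0.088 for SCD and 0.077 for SREBF2. Median-of-ratios scaling gave 0.071, 0.0077, 0.039, 0.14, 0.094 and 0.083 for the same genes in that order. For ABCG1, ELOVL1, FDFT1, SCD and SREBF2, edgeR gave 0.061, 0.030, 0.12, 0.081 and 0.077, DESeq2 gave 0.067, 0.036, 0.12, 0.088 and 0.084, and edgeR with the block gave 0.064, 0.033, 0.13, 0.088 and 0.077, with 0.0015 for DHCR7. With TMM scaling the median of all genes moved from -0.17 to -0.01. Leaving out libraries reversed signs within -0.12 to 0.12 for ABCA1, -0.17 to 0.0046 for ABCG1, -0.50 to 0.021 for ACAT2, -0.22 to 0.33 for CYP51A1, -0.27 to 0.027 for DHCR7 and -0.13 to 0.18 for EBP. The ranges were -0.11 to 0.12 for FDFT1, -0.078 to 0.19 for FDPS, -0.036 to 0.28 for IDI1, -0.13 to 0.067 for SCD, -0.091 to 0.19 for SQLE and -0.15 to 6.4e-05 for SREBF2; the cause was not tested.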
